A study of Mus musculus with 4 samples.

Results

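The potassium channels that are opened by calcium or sodium inside the cell were followed through 8 genes, chosen by symbol: the pore gene Kcnma1 of the large-conductance (BK) channel with its auxiliary genes Kcnmb2 and Kcnmb4, the small-conductance (SK) channel genes Kcnn1, Kcnn2 and Kcnn3, and the sodium-activated channel genes Kcnt1 (Slack) and Kcnt2 (Slick). They are 8 of the 31735 gene rows that all tables shared, and each had a row in all 4 libraries. The libraries held ribosome-bound RNA immunopurified from adult control mice of the line Cbln2-TRAP NIDA172, without treatment, with the rostral pons as the tissue. The transgene is Cbln2-EGFP/Rpl10a, in which Cbln2 is meant to drive EGFP-tagged ribosomal protein L10a. All 4 carried the transgene and formed 1 group, with no other treatment or genotype, which leaves levels of genes, their ratios, and the spread of replicates to be described. The sources used here do not say how many animals went into a library or whether replicates came from separate animals, so a p-value measures only how these libraries vary, which may be technical. Unpurified RNA was not analysed here, so enrichment in the tagged cells was not measured, and fewer cells of a type cannot be told apart from less RNA per cell.

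BK channels respond to both depolarization and calcium and shorten action potentials, and their beta subunits tune this gating. SK channels carry calmodulin as a built-in calcium sensor, do not respond to voltage, and produce the afterhyperpolarization that spaces out spikes. Slack and Slick open when sodium accumulates during firing. Together these families turn ion entry during activity into a brake on further activity in many brainstem neurons.

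The library totals were 12731825 to 21140265 gene counts, so that 1 count was worth 0.0473 to 0.0785 CPM (counts per 1000000 gene counts). Counting intervals are 95% exact Poisson intervals and cover counting error only. The descriptions number replicates 1 and 2 as libraries 1666 and 1667 (called the first pair here) and replicates 3 and 4 as 2469 and 2470 (the second pair). The ribosomal RNA row Rn45s held 24.2% of replicate 3 and 1.61% to 9.29% of the others. Neuronal markers (Snap25 and Syn1 highest) summed to 25208, 22504, 11356 and 11950 CPM in replicates 1 to 4, with all 8 at 1 CPM or more throughout. Markers of other cell types were detected as well, and the genes in parentheses are the highest of each list by mean CPM, whether or not they passed 1 CPM in every library. Of the astrocyte markers, 7 of 8 (Slc1a2, Aldoc) reached 1 CPM in all 4 libraries with sums of 480 to 2086 CPM, as did 7 of 8 oligodendrocyte (Mbp; 433 to 2476 CPM), 5 of 6 oligodendrocyte precursor (Vcan, Pdgfra; 25.8 to 114 CPM), 1 of 8 microglia (Csf1r, C1qb; 3.92 to 43.2 CPM; the 1 was P2ry12), 5 of 7 endothelial (Slc2a1, Flt1; 116 to 256 CPM) and 3 of 8 mural (Rgs5, Myh11; 50.7 to 143 CPM) markers.

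The 6 pore genes share the potassium selectivity filter. Codons at its end are shown for 4 of them because they mark what makes these genes potassium channels and how far the families diverge. The sequences are from the GENCODE M21 transcripts (GRCm38, the assembly of mm10), 5′ to 3′ on the coding strand, 12 bases in capitals with 12 coding bases on each side. The capitals are the last filter codons (glycine, tyrosine or phenylalanine, glycine) and the aspartate codon after them.
Kcnma1: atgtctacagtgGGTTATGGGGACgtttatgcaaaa
Kcnn1: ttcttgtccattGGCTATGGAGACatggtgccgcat
Kcnt1: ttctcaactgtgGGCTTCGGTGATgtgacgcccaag
Kcnt2: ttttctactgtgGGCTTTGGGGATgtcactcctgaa
They lie in coding exons at chr14:23528398-23528433 (Kcnma1, minus strand, exon 8 of 31), chr8:70850642-70850677 (Kcnn1, minus, exon 4 of 9), chr2:25894361-25894396 (Kcnt1, plus, exon 11 of 32) and chr1:140425272-140425307 (Kcnt2, plus, exon 9 of 28). The 2 sodium-activated stretches had 27 of 36 bases in common, while Kcnma1 had 24 in common with Kcnt2 and 17 with Kcnn1. The codons in capitals were searched in frame, with tyrosine or phenylalanine allowed. This found 1 match in each of the 6 pore genes and none in Kcnmb2 or Kcnmb4, beside 218 of 21601 genes (1.01%) with a complete coding sequence. The pattern covers both forms printed above, so these matches are a description and no test.

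Relatives within a family could be told apart by sequence over stretches of 50 bases, and shorter reads were not examined. The longest identical coding stretches between relatives are shown because a read inside one could belong to either gene.
Kcnn1 and Kcnn3: ctgtccatccccatgttcctgcgcct
Kcnt1 and Kcnt2: gactacatggcagatgccaagac
Kcnmb2 and Kcnmb4: caggtgtacgtgaac
These runs of 26, 23 and 15 bases lie at chr8:70852858-70852883 and chr3:89609507-89609532, at chr2:25907601-25907623 and chr1:140533946-140533968, and at chr3:32181946-32181960 and chr10:116473252-116473266. No transcript stretch of 50 bases was shared between relatives, and Kcnmb4 and Kcnn1, of different families, had 3 in common. Kcnmb4 had 30.7% of its 50-base stretches in common with transcripts of other genes, Kcnn2 6.82%, Kcnma1 5.45%, Kcnn1 2.68% and Kcnt2 0.771%, and Kcnmb2, Kcnn3 and Kcnt1 none. For Kcnmb4, 31.5% of the exon bases overlap the antisense genes Kcnmb4os1 and Kcnmb4os2 in GENCODE M21, so its counts are uncertain. Antisense genes also overlap 8.13% of the exon bases of Kcnn2, 5.98% of Kcnma1, 2.88% of Kcnn1 and 1.48% of Kcnt2. Strand use in counting was not given, so whether reads of a gene and its antisense partner were told apart is unknown.

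Kcnma1, the BK pore gene, was the highest of the 8. Kcnma1 (ENSMUSG00000063142.15, chromosome 14, 23289431 to 24014491, minus strand) was at 230, 227, 133 and 138 CPM in replicates 1 to 4, or 182 ± 54.0 CPM (SD, n = 4). The values of the 2 pairs did not overlap, and within each pair they were close. Per kb of union exon, the scale on which genes of different length were compared, Kcnma1 was at 13.5, 13.4, 7.82 and 8.11 CPM, above 55.6% to 70.6% of the 10148 genes that reached 1 CPM throughout and had a known length. Among the 55 rows with a Kcn symbol that reached 1 CPM throughout, Kcnma1 ranked 21 by mean CPM per kb, Kcnt1 26, Kcnn3 32, Kcnn2 38 and Kcnt2 41. All calcium- and sodium-activated pores thus stood below Kcna1 and Kcna2, which ranked 2 and 3 and encode voltage-gated channels.

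The BK beta genes were low and uneven. Kcnmb2 (chromosome 3, 31902507 to 32200180, plus strand) encodes a subunit whose N-terminus can plug and inactivate the BK pore. It was at 0.568, 0.129, 17.4 and 6.14 CPM, resting on 12, 2, 221 and 94 counts, so both libraries of the second pair lay above both of the first. In replicate 2 the counting interval was 0.0156 to 0.464 CPM. Kcnmb4 (chromosome 10, 116417861 to 116473878, minus strand) encodes the subunit best known from neurons, which slows BK gating. Its values were 8.28, 0.257, 2.28 and 0.392 CPM from 175, 4, 29 and 6 counts. Replicate 1 was the highest, its interval of 7.10 to 9.60 CPM lay above those of the other three libraries, and the pairs overlapped. Neither beta gene reached 1 CPM in all 4 libraries. Of the beta counts per kb, Kcnmb2 made up 6.79%, 34.7%, 89.0% and 94.3% in replicates 1 to 4, with 6 beta counts in all behind the value of replicate 2.

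Among the SK genes, Kcnn3 and Kcnn2 led and Kcnn1 was low. Kcnn3 (SK3; chromosome 3, 89520164 to 89675132, plus strand) was at 35.8, 29.2, 67.3 and 61.3 CPM. Both libraries of the second pair were higher than both of the first. Kcnn2 (SK2; chromosome 18, 45268860 to 45686024, plus strand) was at 21.3, 45.8, 18.4 and 13.4 CPM, highest in replicate 2 and lower in the second pair without overlap. Kcnn1 (SK1; chromosome 8, 70842049 to 70863258, minus strand) was at 4.49, 2.89, 0.236 and 6.73 CPM, and replicate 3 held 3 counts, with an interval of 0.0486 to 0.689 CPM. The highest and the lowest Kcnn1 value were thus both in the second pair.

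The 3 SK genes together were at 7.26, 9.56, 8.95 and 9.12 CPM per kb (8.72 ± 1.01, SD, n = 4), while the share of Kcnn3 in that sum was 47.1%, 29.2%, 71.9% and 64.3%. Kcnn2 made up 39.4%, 64.2%, 27.5% and 19.6%, and Kcnn1 13.5%, 6.60%, 0.574% and 16.1%. Kcnn3 was the larger part in replicates 1, 3 and 4 and Kcnn2 in replicate 2.

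The sodium-activated genes also differed in how steady they were. Kcnt1 (chromosome 2, 25863734 to 25918273, plus strand) was at 39.3, 62.4, 44.5 and 110 CPM, highest in replicate 4, and the pairs overlapped. Kcnt2 (chromosome 1, 140246158 to 140612067, plus strand) was at 43.5, 19.0, 3.53 and 6.20 CPM, so the lowest value of the first pair lay above both of the second. Together they were at 10.4, 9.33, 5.19 and 12.5 CPM per kb, beside 13.5, 13.4, 7.82 and 8.11 for Kcnma1. Kcnt1 made up 39.6%, 70.4%, 90.1% and 92.8% of that sum.

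**Figure D1:**
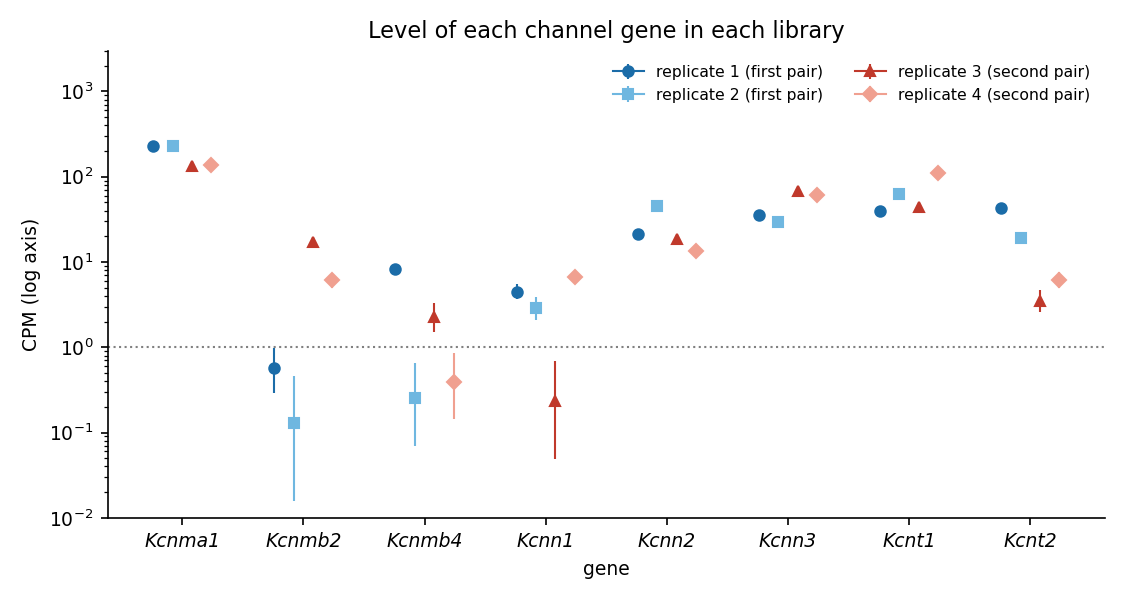
CPM of the 8 channel genes (log axis) in the 4 libraries, with 95% exact Poisson intervals as bars and a dotted line at 1 CPM. Kcnma1 lies at 133 to 230 CPM in every library, while Kcnmb2 runs from 0.129 to 17.4 CPM and Kcnmb4 and Kcnn1 also cross the line.

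The spread between replicates set Kcnmb2 and Kcnt2 apart from genes of like abundance. The SD of log2(CPM + 0.5) was 2.25 for Kcnmb2, larger than for 94.5% of the 3550 genes within 2-fold of its mean CPM, and 1.55 for Kcnt2, larger than for 90.1% of 4236 such genes. For the other members this share was 69.1% (Kcnmb4), 59.8% (Kcnt1), 57.3% (Kcnn1), 49.3% (Kcnn2), 45.4% (Kcnn3) and 44.0% (Kcnma1). These shares describe single genes and are no test.

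Ordered by mean CPM per kb, the genes were Kcnma1 (10.7 ± 3.18, SD, n = 4), Kcnt1 (6.75 ± 3.40), Kcnn3 (4.63 ± 1.79), Kcnn2 (3.31 ± 1.93), Kcnt2 (2.62 ± 2.65), Kcnmb2 (1.93 ± 2.56), Kcnmb4 (0.843 ± 1.13) and Kcnn1 (0.782 ± 0.595). No gene stood above its next neighbour in all 4 libraries, and each of the 7 mean log2 ratios between neighbours was below 2 SD. For Kcnma1 over Kcnt1 the log2 ratio was 0.69 ± 0.88, positive in 3 of 4 libraries and negative (-0.49) in replicate 4. Kcnma1 stayed first whether levels were divided by union exon, longest transcript or coding length or not divided at all, whereas other places changed with the length used. Single libraries weighed on the low means: without replicate 3 Kcnmb2 was at 0.728 CPM per kb, and without replicate 1 Kcnmb4 was at 0.293 and Kcnt2 at 1.39.

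**Figure D2:**
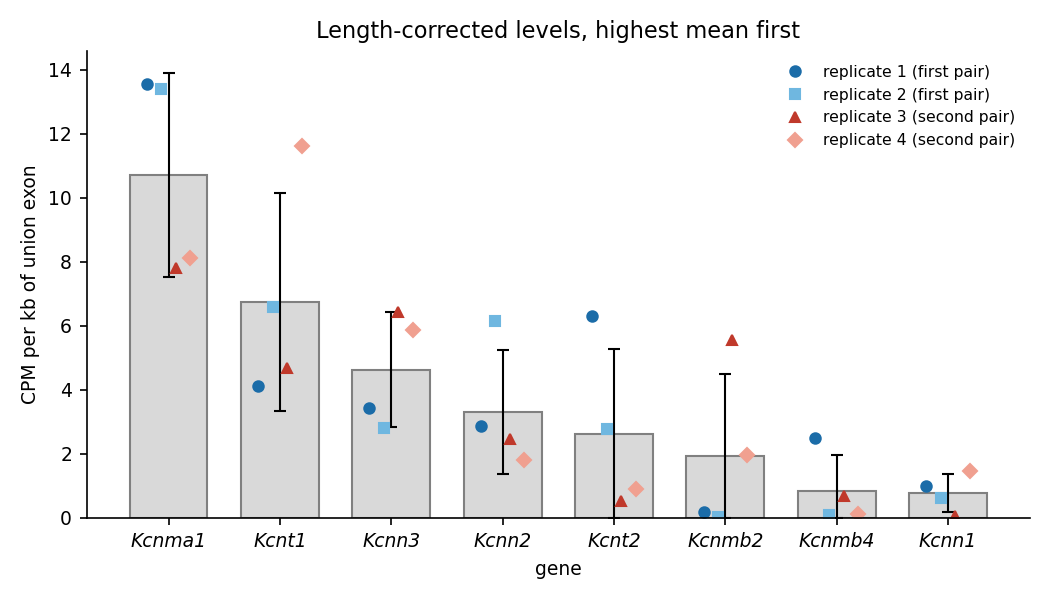
CPM per kb of union exon for the 8 genes, highest mean first; grey bars are means over 4 libraries, black bars 1 SD (drawn down to 0 where the SD exceeds the mean), and points the libraries. Kcnma1 has the highest mean (10.7) and its points share the range of Kcnt1 (mean 6.75), and each gene overlaps its neighbour.

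Ratios within a family were taken inside each library, which removes differences in library size. The pore gene Kcnma1 exceeded each beta gene in 4 of 4 libraries. Its log2 ratio to Kcnmb4 was 2.23, 4.59, 2.81 and 3.80 in replicates 1 to 4 (mean 3.36 ± 1.05, SD). With union exon as the length, a pseudocount of 0.5 and all 4 libraries, this was the only mean of the 7 over 2 SD. The ratio of Kcnma1 to Kcnmb2 was 4.36, 4.68, 0.46 and 1.81 (2.83 ± 2.04), so the second pair had a smaller surplus of pore over Kcnmb2 RNA. Kcnmb4 against Kcnmb2 turned sign, at 2.13 and 0.09 in replicates 1 and 2 and at -2.35 and -1.99 in replicates 3 and 4. In replicate 2 Kcnmb4 (0.0774 CPM per kb) and Kcnmb2 (0.0411) lay far below the pseudocount. The ratios of that library, also those of Kcnma1 to either beta gene, therefore depend largely on the pseudocount.

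Kcnn1 was below both relatives in 4 of 4 libraries. Its log2 ratio to Kcnn2 was -1.18, -2.55, -2.43 and -0.22 (mean -1.60 ± 1.11), and to Kcnn3 -1.41, -1.54, -3.65 and -1.70 (-2.07 ± 1.06). In replicate 3 Kcnn1 (0.0514 CPM per kb) also lay far below the pseudocount. Kcnn2 exceeded Kcnn3 in replicate 2 alone, with -0.22, 1.01, -1.23 and -1.47 (-0.48 ± 1.13), and this mean turned to 0.13 when the longest transcript was used as the length. Kcnt1 exceeded Kcnt2 in replicates 2, 3 and 4, with -0.56, 1.12, 2.35 and 3.11 (1.51 ± 1.60). Each mean was tested by an exact permutation of the signs over the 4 libraries, two-sided. The 4 ratios with the same sign throughout reached the smallest p that this exact test allows, 2 of 16 sign patterns, or 0.219 after Benjamini-Hochberg adjustment over the 7 pairs. For Kcnt1 to Kcnt2, Kcnn2 to Kcnn3 and Kcnmb4 to Kcnmb2 the exact p was 0.25, 0.375 and 0.75 (adjusted 0.35, 0.4375 and 0.75). A design of this size cannot reach 0.05.

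**Figure D3:**
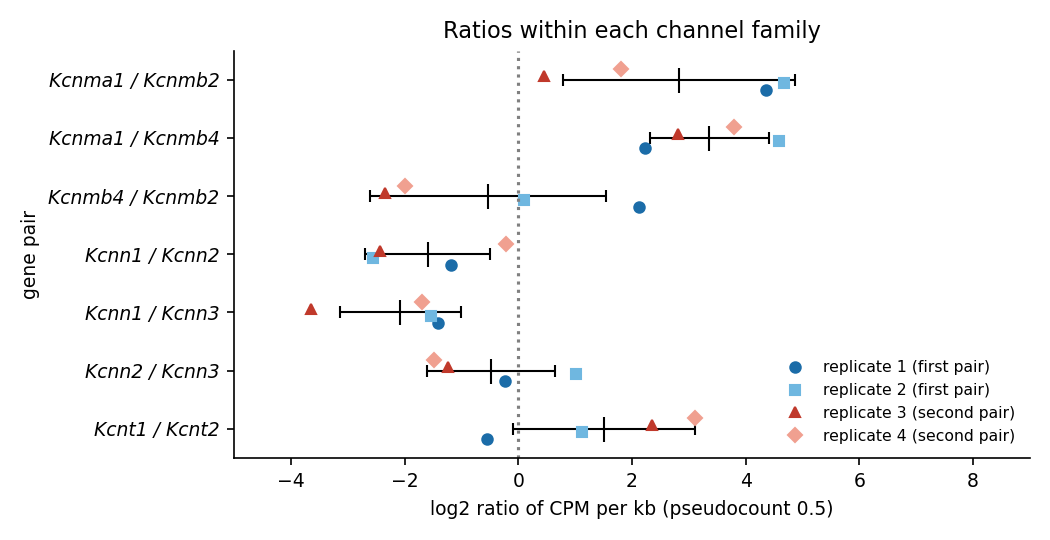
Log2 ratio of CPM per kb (pseudocount 0.5) for the 7 gene pairs within a family, with 1 point per library and black bars for the mean and 1 SD over 4 libraries. Both Kcnma1 ratios lie right of 0 and both Kcnn1 ratios left of 0 in every library, while the other three pairs have points on both sides.

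None of the 8 genes passed the comparison of the second library pair with the first. The 2 libraries of either pair are replicates of the same group, and the comparison was made by edgeR's quasi-likelihood test on all 13905 genes that passed the filter on low counts, the 8 members included. Of those genes 176 were called at an adjusted p under 0.05, or 1.27% (0.712% higher and 0.554% lower in the second pair). At an unadjusted p under 0.05, 3 members (Kcnma1, Kcnmb2 and Kcnt2) lay below the threshold, beside 16.8% of all tested genes. The CPM of the pairs did not overlap for 5 members (Kcnma1, Kcnn2 and Kcnt2 lower, Kcnmb2 and Kcnn3 higher in the second pair), beside 47.5% of all tested genes, and after TMM scaling for the same 5 beside 47.7%. With 8 genes, 5 is near that background.

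Kcnmb2 had the largest estimate among the members, with pair means of 0.348 and 11.7 CPM (log2 difference 5.10, SE 1.52, edgeR adjusted p = 0.111). For Kcnt2 the means were 31.3 and 4.87 CPM (log2 difference -2.68, SE 0.83, edgeR adjusted p = 0.128). By DESeq2, which called 9.93% of its genes, both had an adjusted p under the threshold (0.00192 and 0.00813). By edgeR both moved across it when 1 library was left out, Kcnmb2 without replicate 1 (adjusted p = 0.0309) and Kcnt2 without replicate 2 (adjusted p = 0.0264), while the edgeR adjusted p was 0.609 for Kcnmb2 without replicate 3 and 0.381 for Kcnt2 without replicate 1. The call of either gene therefore depended on the tool and on single libraries.

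The other 6 members had edgeR adjusted p of 0.293 to 0.977. Kcnma1 went from 229 to 135 CPM (log2 difference -0.74, SE 0.34), Kcnn2 from 33.6 to 15.9 (-1.05, SE 0.70), Kcnn3 from 32.5 to 64.3 (1.01, SE 0.50) and Kcnt1 from 50.8 to 77.3 (0.57, SE 0.51). For Kcnmb4 and Kcnn1 the SE exceeded the estimate (-1.57, SE 1.89, and -0.16, SE 1.66). The sign of the estimate turned for Kcnmb4 without replicate 1 (2.40), for Kcnn1 without replicate 1 (0.15) or replicate 3 (0.77), and for Kcnt1 without replicate 4 (-0.075). The median log2 difference was -0.45 over the 8 members and -0.03 over all tested genes.

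**Figure D4:**
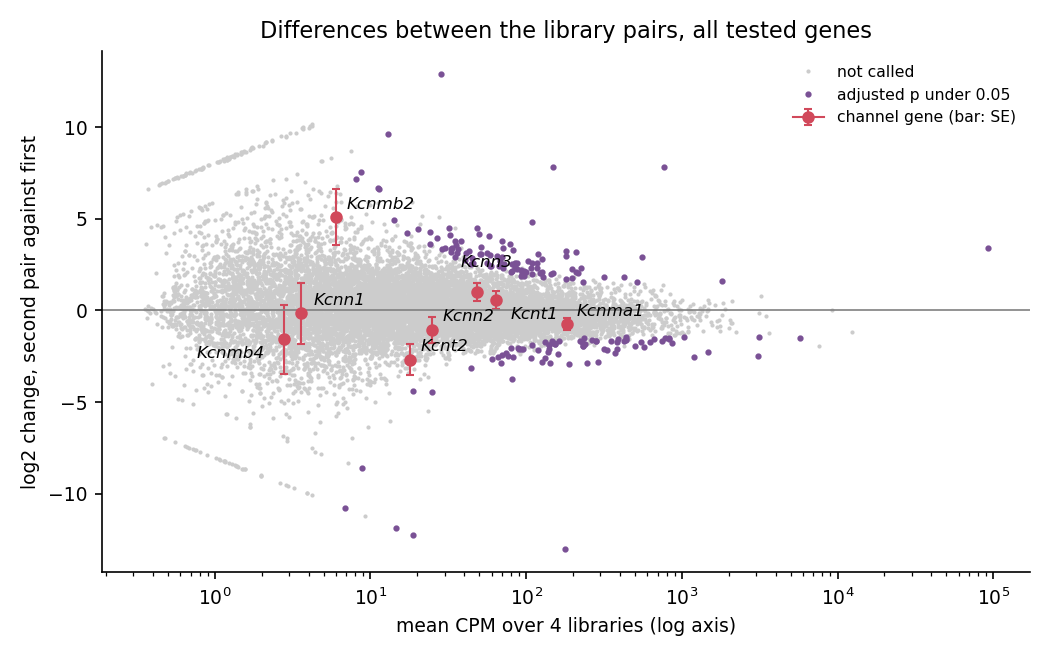
Log2 difference between the library pairs (second against first) against mean CPM (log axis) for the 13905 tested genes, with called genes in purple and the 8 channel genes in red with SE bars. Kcnmb2 (5.10) and Kcnt2 (-2.68) lie farthest from 0 among the red points, and none of the 8 is called.

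Markers of cerebellar and noradrenergic neurons also differed between libraries. The 8 granule cell markers (Cbln3 and Etv1 highest) reached 1 CPM throughout and summed to 639, 1539, 189 and 320 CPM in replicates 1 to 4, with all 8 lower in the second pair without overlap, beside 23.8% of all tested genes. Of the 8 Purkinje cell markers (Itpr1, Rora), 7 reached 1 CPM throughout, Skor2 was at 0 counts in replicate 3, and the sums were 2031, 3403, 973 and 930 CPM. Pcp2 (1.09 to 11.6 CPM) and Calb1 (166, 158, 283 and 184 CPM) of that list lay higher in the second pair, against the direction of the sum. The 6 noradrenergic markers (Slc6a2, Slc18a2) summed to 91.5, 39.5, 89.3 and 339 CPM, 4 of them at 1 CPM throughout, with Phox2a at 0 counts in replicates 1 and 2. The endothelial sums were 177, 256, 122 and 116 CPM. Kcnma1, Kcnn2 and Kcnt2 were lower without overlap in the same pair as the granule, Purkinje and endothelial sums, beside 23.8% of all tested genes. Kcnn2 and each of these sums peaked in replicate 2. Kcnt2 instead peaked in replicate 1 (43.5 CPM, beside 19.0 in replicate 2), and Kcnma1 was close in both (230 and 227 CPM). The neuronal sum was also lower in the second pair, without overlap, and Snap25 was its largest part (pair means 17242 and 7533 CPM). The neuronal list went both ways, as edgeR called 1 gene higher and 1 lower, beside 1.27% of all tested genes. Tubb3 rose (pair means 59.6 and 230 CPM) and Nefm fell (2032 and 354 CPM). Kcnt1 was highest in replicate 4, as were the noradrenergic, astrocyte, oligodendrocyte, oligodendrocyte precursor and microglia sums. The oligodendrocyte precursor sum was almost as high in replicate 1 (113 CPM, beside 114 in replicate 4), where Kcnt1 was lowest (39.3 CPM). The mural sums were 74.9, 50.7, 143 and 137 CPM, higher in the pair in which Kcnmb2 and Kcnn3 were higher. The part of these cell types in the channel levels was not tested.

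The other genes of the same families were mostly low. Of 8, namely the BK beta genes Kcnmb1 and Kcnmb3, the BK gamma genes Lrrc26, Lrrc38, Lrrc52 and Lrrc55, the pH-sensitive sperm channel gene Kcnu1 and the intermediate-conductance channel gene Kcnn4, only Lrrc55 reached 1 CPM in all 4 libraries. Lrrc55 was at 25.0, 67.9, 24.5 and 35.6 CPM, or 5.91 ± 3.16 CPM per kb (SD, n = 4), which is above the mean of each beta gene on that scale (1.93 for Kcnmb2 and 0.843 for Kcnmb4). Lrrc38 and Kcnu1 followed at 0.651 ± 0.793 and 0.603 ± 0.833 CPM per kb. Kcnmb1, the beta gene of smooth muscle, was at 3.88, 0.643, 0 and 0.653 CPM, highest in replicate 1. Kcnmb3 was at 0 counts in all 4 libraries, which allows up to 0.142 to 0.236 CPM by the usual limit of 3 counts. Of these 8 genes 4 could be tested between pairs and none passed the edgeR test (median log2 difference 0.07).

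SK channels form a complex with calmodulin, the kinase CK2 and the phosphatase PP2A, and all 9 genes of that list reached 1 CPM throughout. The calmodulin genes led it, with Calm2 at 1390 ± 502 and Calm3 at 194 ± 25.8 CPM per kb (SD, n = 4), both far above the 8.72 CPM per kb of the SK genes together. Of the 9 genes none passed the edgeR test between pairs, with a median log2 difference of 0.06.

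Calcium reaches these channels through voltage-gated calcium channels and through release from stores, and all 12 genes of that list reached 1 CPM throughout. The highest per kb were the inositol trisphosphate receptor gene Itpr1 (47.0 ± 34.0 CPM per kb), the N-type channel gene Cacna1b (20.0 ± 10.6) and the P/Q-type gene Cacna1a (8.91 ± 3.12). Itpr1, which is also on the Purkinje list, was at 949, 1706, 357 and 430 CPM. It fell in the second pair (log2 difference -1.75, SE 0.35, edgeR adjusted p = 0.0332) and was the only gene of the 12 to pass, but not without replicate 2 (adjusted p = 0.0908). The median log2 difference of the list was -0.27.

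Sodium for Slack and Slick enters through voltage-gated sodium channels and the leak channel gene Nalcn, and all 5 genes of that list reached 1 CPM throughout. Scn8a was at 51.6 ± 26.6, Scn1a at 29.9 ± 9.85 and Scn2a, listed in the tables as Scn2a1, at 23.2 ± 3.75 CPM per kb (SD, n = 4). Scn8a was at 1092, 1185, 262 and 717 CPM, lowest in replicate 3, where Kcnt1 and Kcnt2 together were lowest as well. None of the 5 passed the edgeR test between pairs (median log2 difference -0.21). For Scn8a (log2 difference -1.25, edgeR adjusted p = 0.121) this depended on the tool and on single libraries. Its adjusted p was 0.0337 by DESeq2, and by edgeR it fell under the threshold without replicate 1 or replicate 4. Such fits leave 1 library in a pair and assume that it varies like the others, so they do not make the difference firmer.

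Of 7 genes for proteins that bind these channels or hold them near calcium sources, 6 reached 1 CPM throughout, the exception being the actin-binding protein gene Actn2. Jph4 and Jph3 encode junctophilins, which tie the plasma membrane to the endoplasmic reticulum, and were at 28.1 ± 10.9 and 18.9 ± 15.9 CPM per kb, followed by the scaffold gene Mpp2 at 16.4 ± 7.59. Jph3 was at 26.4, 22.2, 127 and 162 CPM. It rose in the second pair (log2 difference 2.58, SE 0.43, edgeR adjusted p = 0.0229) and was the only gene of 6 tested to pass. With 1 library left out its log2 difference was 2.49 to 2.68. The list had a median log2 difference of 0.67.

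**Figure D5:**
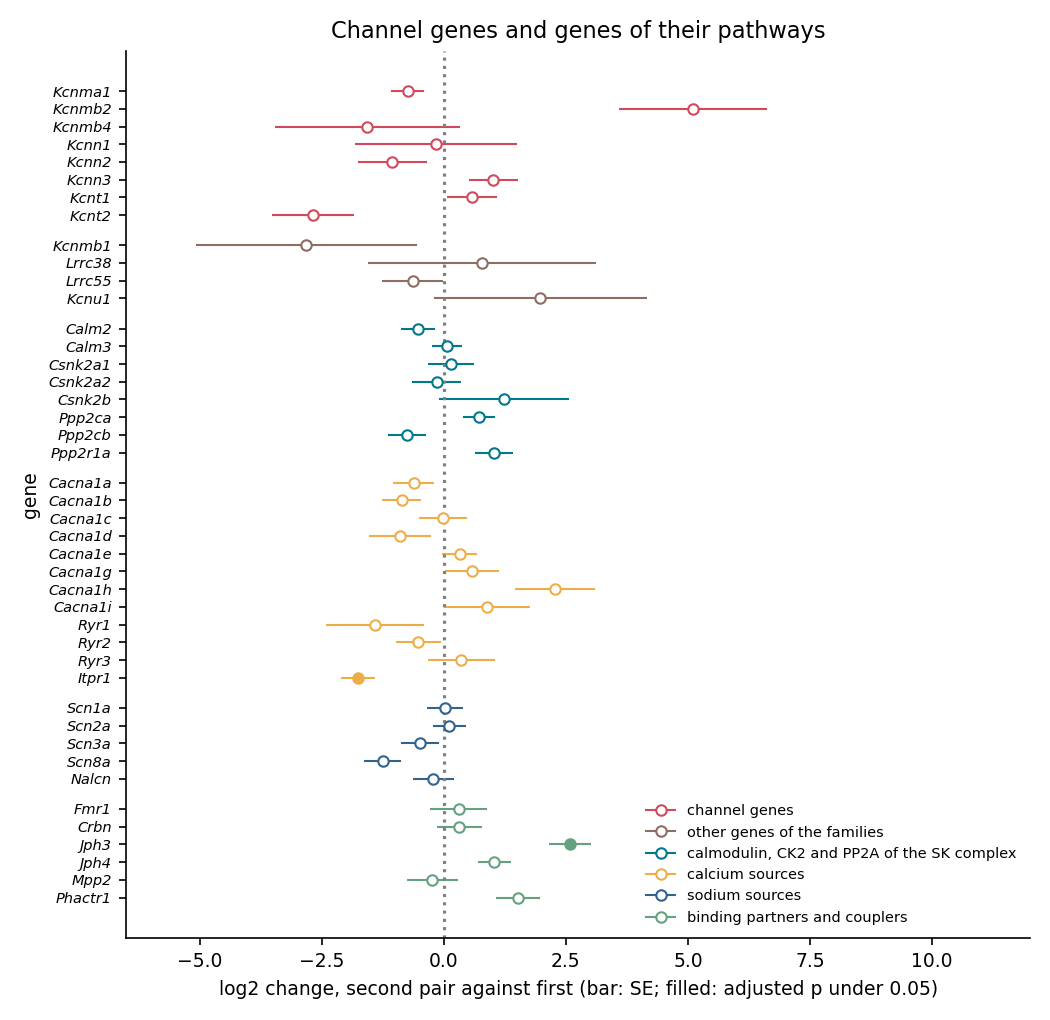
Log2 difference between the library pairs (second against first) with SE bars for the 8 channel genes and all but 1 of the tested genes of 5 pathway lists, with filled circles for an edgeR adjusted p under 0.05. Only Itpr1 (-1.75) and Jph3 (2.58) are filled, and the widest bars belong to low genes such as Kcnmb1, Lrrc38 and Kcnu1.

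For the 5 members at 1 CPM or more throughout, the genes with the most similar course over the 4 libraries were found by the root mean square difference of centred log2(CPM + 0.5) among 10631 other genes at that level. They were Rnf150 and Penk for Kcnma1 (difference 0.04 for both), Nek2 and Fam13a for Kcnn2 (0.02 and 0.06), Oaz1 and Nip7 for Kcnn3 (0.02 for both), Kdm6b and Cltc for Kcnt1 (0.03 and 0.04), and A130010J15Rik and A930004D18Rik for Kcnt2 (0.06 and 0.09). With 4 libraries such likeness is common, and 475 genes lay within 0.2 of Kcnma1, 219 of Kcnn3, 124 of Kcnt1, 101 of Kcnn2 and 4 of Kcnt2. Penk was at 340, 337, 189 and 192 CPM, beside 230, 227, 133 and 138 for Kcnma1.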

How the data were processed

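The authors deposited raw read counts per gene symbol, 1 table per library, without normalization. The submitters' processing notes name STAR 2.0.0e, HTSeq and mm10. Annotation, strand setting and HTSeq options are not given in the sources used here. HTSeq summary rows stayed out of totals and tests. Of the counts in gene and summary rows together, 28.6% to 37.2% were in the row for alignments that were not unique. Another 24.0% to 30.1% lay outside any feature and 1.25% to 2.07% were ambiguous. Whether a read with several alignments was counted once or more is not given, so these are not shares of reads. CPM were taken over all gene rows. The tables of the pairs list different rows, and the 31735 shared rows, which leave out at most 0.732% of the counts, were tested. No library repeated another, since the chi-square between any 2 was at least 153 per degree of freedom. Titles gave the replicate numbers, also for replicate 4, whose description carries a 3 instead. Exon lengths came from GENCODE M21, found for 95.4% of the 10632 genes at 1 CPM throughout, and ratios had a pseudocount of 0.5 CPM per kb. Pairs were compared with edgeR 4.0.16 (TMM, filterByExpr, quasi-likelihood, Benjamini-Hochberg over all tested genes, threshold 0.05), checked on simulated data, with SE taken as the estimate divided by the square root of F. DESeq2 1.42.0, its size factors, other filters, lengths and pseudocounts, removal of Rn45s and leaving out each library were tried. The members, 5 pathway lists, 10 marker lists and 7 gene pairs were chosen with earlier results of these data known. Named were all members, of each pathway list the 3 highest per kb, those called and those at 0 counts throughout, of each marker list the 2 highest, and the 2 genes most like each member. A few items that this rule names, and 1 sequence, are not reported here. Kcna1, Kcna2, Kcnmb1, P2ry12, Pcp2, Calb1, Skor2, Phox2a, Actn2, Tubb3 and Nefm were named after their values were seen.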

Additional observations from a re-analysis of the deposited data

Results flagged for a closer look

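The log2 ratio of Kcnn1 to Kcnn3 had a library far from the others. Replicate 3 was at -3.65 and the other three libraries at -1.41 to -1.70, and its gap to the nearest of them was 0.871 of the whole range, above Dixon's 95% critical value for 4 samples. Kcnn1 had 3 counts there. About 1 in 20 groups passes this limit by chance, and 15 sets of values were examined.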

How the results depend on the processing

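The number of genes that differed between the pairs was 176, and it was 1398 by DESeq2, 875 with no filter on low counts, 525 among genes at 1 CPM throughout, and 389 to 699 when 1 replicate was left out. The cause was not tested. With DESeq2 size factors or without Rn45s it stayed within 1.5 times. Of the 7 ratios, Kcnmb4 to Kcnmb2 ranged from -1.42 to 0.078 with 1 replicate left out, and turned without replicate 3, and Kcnn2 to Kcnn3 turned to 0.13 with the longest transcript as length. With 1 replicate left out the log2 difference ranged from -3.50 to 2.40 for Kcnmb4 (positive without replicate 1), from -3.80 to 0.77 for Kcnn1 (positive without replicates 1 or 3) and from -0.075 to 1.01 for Kcnt1 (negative without replicate 4). Over other lengths and pseudocounts the ratio ranged from 2.80 to 6.45 for Kcnma1 to Kcnmb4, 2.37 to 5.88 for Kcnma1 to Kcnmb2, -3.90 to -1.67 for Kcnn1 to Kcnn3 and -2.88 to -1.25 for Kcnn1 to Kcnn2. Which means were over 2 SD also changed. Kcnn1 to Kcnn3 was over 2 SD with each other length (-3.90, SD 1.75, without length) and with a pseudocount of 1. Kcnma1 to Kcnmb2 was so without length (5.88, SD 2.68), and Kcnn1 to Kcnn2 with the longest transcript (-2.40, SD 1.18). Mean levels per kb of union exon moved by less than 1 SD without Rn45s, with TMM scaling, as medians and with 1 replicate left out, but another length changes them by its ratio (Kcnma1 48.8 per kb of coding length). Kcnmb2, Kcnmb4 and Kcnn1 had no value between pairs when 1 CPM was required in all libraries. Where 1 library was left out of a pair, the lone library was assumed to vary like the others. No paired analysis was possible because all libraries belong to 1 group and no replicate number recurs across groups. Depth limits Kcnmb2, Kcnmb4 and Kcnn1, which had fewer than 10 counts in at least 1 library.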
